A study of Mus musculus with 4 samples.

Results

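The contractile apparatus of smooth muscle was followed here through 10 genes of the deposited matrix: the actin genes Acta2, Actc1 and Actg2, the actin filament nucleator gene Lmod1, the myosin heavy chain gene Myh11, the actin-binding protein genes Cnn1, Tagln and Smtn, the intermediate filament gene Des and the calcium pump regulator gene Pln. They were taken by gene symbol from the 31055 features of the matrix, in which 10 of 10 symbols were found, and 10 of 10 had at least 30 counted transcripts (unique molecular identifiers, UMIs) in the cells kept. The rule that chose them used no measured value. The cells came from lungs of mice of about 8 weeks with 1 allele of Gli1-CreERT2 and 1 allele of the Rosa26 mTmG reporter. All mice had received tamoxifen, and the cells had been sorted as negative for CD45, a leukocyte protein, and CD31, an endothelial protein. The reporter makes membrane tdTomato and, after Cre has acted, membrane EGFP, so EGFP marks cells in which Gli1 was expressed around dosing and cells descended from them. No other genotype, dose or time was among the 4 samples, and the labels disagree on the mouse strain and on the version of the droplet 3′ kit, so neither is stated.

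Smooth muscle shortens when calcium activates myosin light chain kinase and the myosin heads pull on thin filaments built from smooth muscle actins. Thin filaments carry calponin and transgelin, are organised by leiomodin and smoothelin, and are tied to the cell's anchoring sites, which desmin filaments link through the cytoplasm. In the lung, such cells ring the airways and the walls of arteries and veins, pericytes lie on capillaries, and alveolar myofibroblasts and related cells carry part of the programme. Many of these genes are known targets of serum response factor and its cofactor myocardin, which act through a DNA motif called the CArG box.

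The reads of the 4 samples, 65156149 to 74901791 each, were pooled in 1 matrix of 11118 barcodes with 1 barcode suffix, with nothing in the files used here to tell which mouse or library a cell came from, so all cells are treated as a single sample. Barcodes shared between libraries could not be counted, no test was made, and every interval below is a 95% interval that covers counting error only. After filtering, 8933 cells remained, with a median of 7967 UMIs. Levels are CPM, counts scaled to a common total of UMIs summed over a group of cells, and ratios are ratios of these levels. Free RNA puts some transcripts into every droplet, so alveolar type 2-like epithelial cells (1659 cells, median 9420 UMIs) are given as a background for cells that should lack these genes.

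Cells were clustered without the 10 genes, without other contractile genes and without the reporters. Genes that vary with them did take part, so the difference between a cluster and the rest is a description. A pool of 628 cells (7.03% of cells) held muscle and related cells, and it was divided again into 9 sub-clusters. Sub-clusters 100, 101 and 103 (123, 110 and 97 cells) were Hhip-high myofibroblast-like, with the hedgehog-binding protein gene Hhip at 5149 to 5352 CPM and Aspn, a matrix proteoglycan gene, at 1737 to 3974 CPM. Sub-cluster 104 (78 cells) was airway-type muscle-like, with Hhip at 3239.5 CPM, the muscarinic receptor gene Chrm2 at 185 CPM and no UMI of Notch3. Chrm3, another muscarinic receptor gene of the airway list, had 1 UMI there. Sub-clusters 102 and 105 were vascular-type, with the adhesion protein gene Mcam at 321 and 295 CPM and Hhip at 26.1 and 0 CPM. Sub-cluster 102 (105 cells) was led by muscle genes such as Tpm2 and Myl9. Sub-cluster 105 (63 cells) had Notch3 (471 CPM), which is on both the vascular and the pericyte list, and the pericyte gene Higd1b (329 CPM). Among its 10 leading genes were 5 pericyte-list genes against 3 vascular-list genes, with Notch3 counted in both. It is therefore called the pericyte-led sub-cluster and is kept apart.

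These names were not sharp. Among the 10 leading genes of the airway-type sub-cluster, 4 belonged to the Hhip-high list, 2 to the smooth muscle list and 1 to the airway list, and the airway and Hhip-high lists themselves share Hhip, Enpp2 and Lgr6. The muscle-led sub-cluster had 2 smooth muscle genes, 1 Hhip-high gene and 0 vascular-list genes among its 10. The comparisons below are therefore between these numbered sub-clusters, and the names say which markers each holds. The smooth muscle list holds none of the 10 genes but does hold other contractile genes such as Tpm2 and Myl9. A sub-cluster was called muscle only if its mean z-score (standardised level over clusters) on that list was at least 0.5. This score was 1.09 in the airway-type sub-cluster and 0.00404, 0.214 and 0.0988 in sub-clusters 100, 101 and 103. Among the Hhip-high cells the 6 genes of a chondrocyte list summed to 250 CPM, against 12.1 CPM in the airway-type, 9.03 CPM in the muscle-led and 0 CPM in the pericyte-led sub-cluster. The adventitial fibroblast list summed to 3808 CPM in Hhip-high cells and to 704 to 1427 CPM in the other 3 groups. The part of those cells or transcripts in the levels below was not tested.

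Most of the UMIs of the contractile genes lay in this small pool. It held 4.47% of all UMIs in kept cells but 80.1% to 96.1% of the UMIs of 8 of the 10 genes, from Lmod1 at the low end to Actg2 at the high end. The exceptions were Smtn (24.5%) and Pln (28.2%). Not all of this lay in the groups compared below. Sub-clusters 106, 107 and 108 (34, 14 and 4 cells) were left unnamed and are in none of these groups. They held 8.03% (Lmod1) to 29.6% (Cnn1) of the UMIs of the 8 genes. For each of the 8 this was more than the airway-type sub-cluster held, such as 28.4% against 8.5% for Des. Together the 10 genes made up a median of 4.67% of a cell's UMIs in the muscle-led sub-cluster, with 3.27% to 6.29% between the 10th and 90th percentile of cells. The median was 1.64% in the airway-type sub-cluster (0.488% to 3.32%) and 1.24% in the pericyte-led sub-cluster (0.136% to 4.13%). Hhip-high cells had a median of 0.327% (0.0509% to 1.23%), alveolar-like fibroblasts 0.0255% and adventitial-like fibroblasts 0.00773%, while the median alveolar type 2-like cell had 0. The airway-type and pericyte-led cells overlapped, the latter with the wider spread, and the distribution of the Hhip-high cells reached into it: 18 of 330 (5.45%) were at or over the airway-type median, and 7 of 78 airway-type cells (8.97%) were at or under the Hhip-high median.

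**Figure D1:**
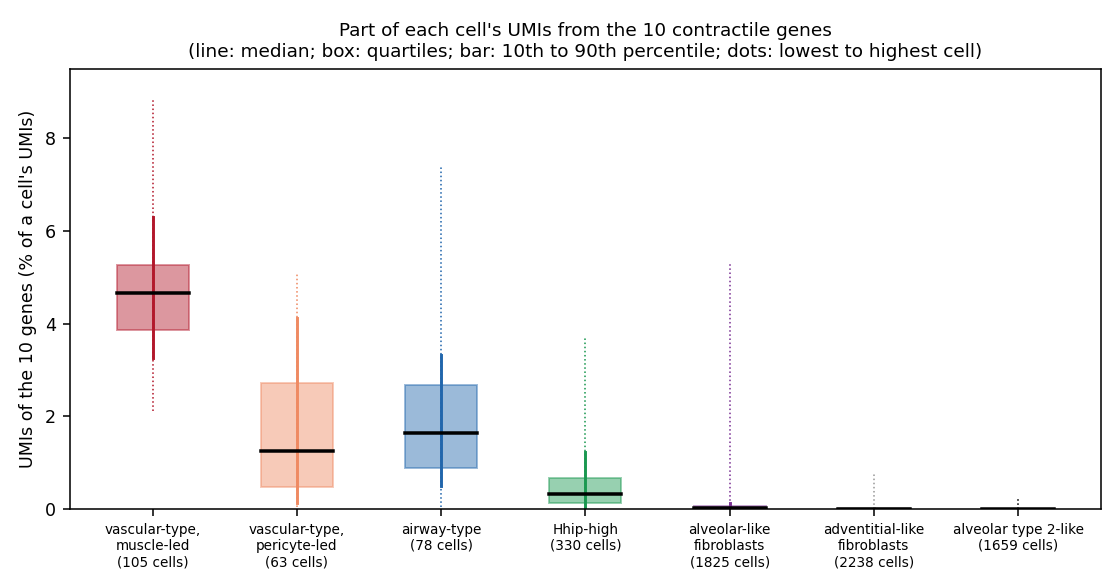
The percentage of each cell's UMIs that came from the 10 contractile genes (vertical axis) in 7 groups of cells, with the median, quartiles, 10th to 90th percentile and full range over cells. The muscle-led cells lie highest (median 4.67%), airway-type (1.64%) and pericyte-led cells (1.24%) overlap, Hhip-high cells are lower (0.327%), and fibroblasts and alveolar type 2-like cells are near 0.

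Acta2 (chromosome 19, 34241090-34255590, minus strand; all gene positions are mm10 with GENCODE M21 genes) codes for the actin of vascular smooth muscle, which is also the usual marker of myofibroblasts. It stood at 22165 CPM in the muscle-led (21874 to 22459), 10086 CPM in the pericyte-led (9727 to 10455), 8407 CPM in the airway-type (8097 to 8726) and 1604 CPM in the Hhip-high cells (1536 to 1674). Adventitial-like and alveolar-like fibroblasts had 41.8 and 67 CPM, and alveolar type 2-like cells 5.03 CPM. The muscle-led level was thus the highest, the intervals of the 4 groups did not overlap, and the Hhip-high level stood between muscle and fibroblasts. Per cell, the 10th percentile, median and 90th percentile were 13387, 21113 and 30969 CPM in the muscle-led, 1693, 6069.9 and 11896 CPM in the airway-type, 22.2, 5471 and 18828 CPM in the pericyte-led and 0, 804 and 3657 CPM in the Hhip-high cells, so single cells of the last 3 groups overlapped. Every muscle-led cell had an Acta2 UMI, and so did 97.4% of airway-type and 79.1% of Hhip-high cells, against 4.46% of alveolar type 2-like cells.

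Actc1 (chromosome 2, 114047282-114053548, minus strand), which codes for the actin of heart muscle, drew the sharpest line between the Hhip-high cells and muscle. It had 3 UMIs in 2 of the 330 Hhip-high cells (0.606% of cells, against 0.362% of alveolar type 2-like cells), or 2.31 CPM (0.477 to 6.75). In the airway-type sub-cluster it had 178 UMIs (540 CPM, 464 to 626), in the pericyte-led 259 (878 CPM, 774 to 992) and in the muscle-led 1988 (1995 CPM, 1908 to 2085). The Hhip-high value was near that of alveolar-like (1.52 CPM) and adventitial-like fibroblasts (5.35 CPM), and the interval of the ratio to fibroblasts spanned 1 (0.562, 0.114 to 1.68). Within the muscle groups Actc1 was uneven: the median airway-type and pericyte-led cell had no Actc1 UMI, and the 10% of cells with most Actc1 held 76.4% and 64.1% of its UMIs. A gene on the opposite strand, A530058N18Rik, overlaps Actc1 but is not a feature of the matrix. Whether strand was used in counting is not given in the sources used here, so whether reads of the 2 genes were kept apart is not known.

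Actg2 (chromosome 6, 83512905-83536265, minus strand) codes for the actin of gut and other visceral smooth muscle. It was at 1337 CPM in the muscle-led (1266 to 1410), 914 CPM in the airway-type (814 to 1023), 587 CPM in the pericyte-led (502 to 681) and 163 CPM in the Hhip-high cells (141 to 186). Fibroblasts had 1.64 and 1.72 CPM. Set against Acta2 in the same cells, the groups fell into a pattern of their own. Actg2 UMIs came to 10.9% of Acta2 UMIs in the airway-type (9.62 to 12.2) and 10.1% in the Hhip-high cells (8.75 to 11.7), but to 5.82% in the pericyte-led (4.96 to 6.78) and 6.03% in the muscle-led sub-cluster (5.70 to 6.37). By Actc1 the division ran elsewhere: 0.144% of Acta2 UMIs in Hhip-high cells (0.0297 to 0.422), 6.43% in airway-type (5.49 to 7.48), 8.71% in pericyte-led (7.64 to 9.89) and 9.0% in muscle-led cells (8.59 to 9.42). The balance of Actg2 to Acta2 was thus higher in both Hhip-positive groups than in both vascular-type groups. Sub-cluster 103, 1 of the 3 Hhip-high sub-clusters, was less apart, at 8.13% (6.17 to 10.5), an interval that overlaps both vascular-type ones. In UMIs summed over cells, the balance of Actc1 to Acta2 set the Hhip-high group apart from all 3 muscle sub-clusters. Single cells were not divided in this way: 56 of 78 airway-type and 36 of 63 pericyte-led cells had no Actc1 UMI.

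**Figure D2:**
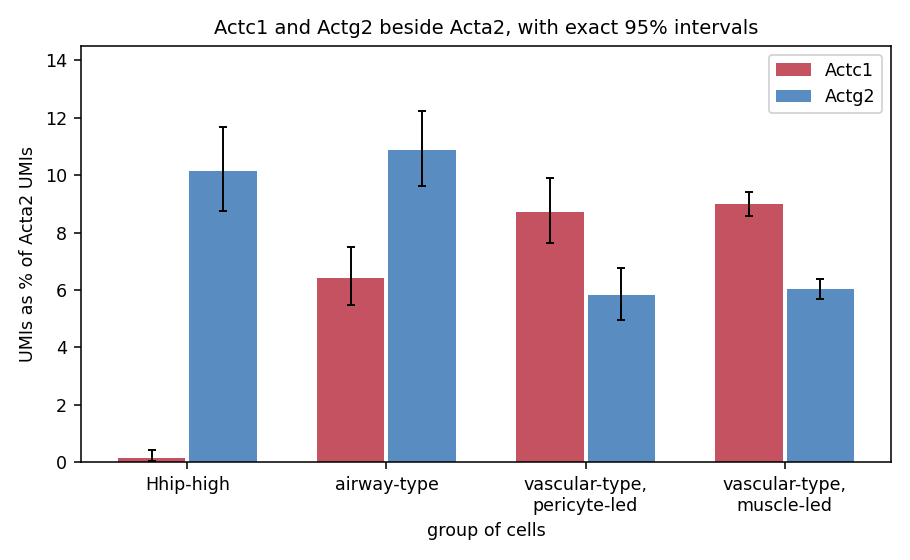
UMIs of Actc1 (red) and Actg2 (blue) as a percentage of Acta2 UMIs in the same group of cells (vertical axis from 0), with exact 95% intervals for counting error. Actg2 is near 10% in Hhip-high (10.1%) and airway-type cells (10.9%) and near 6% in the pericyte-led (5.82%) and muscle-led (6.03%) cells, while Actc1 is at 0.144% in Hhip-high cells and between 6.43% and 9.0% in the other 3.

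The 3 actin genes are close copies. Their coding sequences were equal at 82.7% (Acta2 and Actc1), 84.3% (Acta2 and Actg2) and 84.7% (Actc1 and Actg2) of aligned bases. A 3′ kit reads the ends of transcripts, where they differ more: of 371 words of 30 bases in the last 400 bases, the first pair shared 0, the second 0 and the third 4. How the authors' counting treated reads that fit more than 1 gene is not given in the sources used here, so an exchange of reads between Actc1 and Actg2 was not tested.

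Since these genes were high in the same groups, their promoters were read for CArG boxes on both strands. RefSeq windows from 250 bases before to 50 after the gene start (GRCm38.p6) were at hand for 7 of the 10 genes. No window was at hand for Actg2, Myh11 and Tagln. A CArG box with all 6 inner bases A or T stood in the window of 1 of the 7, Actc1, and in 1.63% of all 32851 windows (27025 genes). With 1 other inner base allowed, matches stood in Acta2 and Actc1, 2 of the 7, and in 9.98% of all windows. Such a match is a description of letters and not a measured binding site. The sequences of these 2 genes are shown because theirs were the only windows of the 7 with a match. Capitals mark the matches, and positions count from the RefSeq gene start. The Actc1 sequence is chr2:114052888-114053125, minus strand, positions -250 to -13, and holds 4 matches, of which the last one, at -47, has only A and T inside. The Acta2 sequences are chr19:34255438-34255467 and chr19:34255388-34255417, minus strand, each a match with its flanks.
Actc1 upstream: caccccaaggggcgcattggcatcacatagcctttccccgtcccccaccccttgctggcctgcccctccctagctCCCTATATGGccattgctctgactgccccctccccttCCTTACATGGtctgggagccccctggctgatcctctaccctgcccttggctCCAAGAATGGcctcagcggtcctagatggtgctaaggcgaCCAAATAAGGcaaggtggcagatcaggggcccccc
Acta2 distal match: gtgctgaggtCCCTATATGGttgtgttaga
Acta2 proximal match: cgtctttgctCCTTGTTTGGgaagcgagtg
The distal match of Acta2 and the first match of Actc1 are the same 10 letters.

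Lmod1 (chromosome 1, 135324807-135368065, plus strand), whose protein starts actin filaments in smooth muscle, was at 609 CPM in the muscle-led (562 to 660), 268 CPM in the pericyte-led (212 to 334), 228 CPM in the airway-type (179 to 285) and 70.1 CPM in the Hhip-high cells (56.4 to 86.1). The intervals of the pericyte-led and airway-type levels overlapped. Adventitial-like fibroblasts had 5.83 CPM and alveolar-like fibroblasts 1.21 CPM, the latter near the 0.870 CPM of alveolar type 2-like cells.

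Myh11 (chromosome 16, 14194535-14291372, minus strand) codes for the motor protein of smooth muscle and is used as its defining marker. It was at 3648 CPM in the muscle-led (3530.1 to 3768), 1330 CPM in the airway-type (1208 to 1460), 1102 CPM in the pericyte-led (985 to 1228) and 142 CPM in the Hhip-high cells (122 to 164). Each of the 105 muscle-led cells had a Myh11 UMI. In cells thinned to 2000 UMIs, the share with a Myh11 UMI was 100% in muscle-led, 66.7% in pericyte-led, 60.3% in airway-type and 20.8% in Hhip-high cells (unthinned 100%, 81.0%, 65.4% and 34.5%), against 0.485% in alveolar type 2-like cells. Alveolar-like fibroblasts, at 0.469%, and adventitial-like fibroblasts, at 0.673%, were near that background.

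Calponin, the product of Cnn1 (chromosome 9, 22099216-22109630, plus strand), binds actin and restrains myosin. Its gene was at 1318 CPM in the muscle-led (1247 to 1391), 768 CPM in the airway-type (676 to 869) and 234 CPM in the pericyte-led cells (182 to 296). Hhip-high cells had 28 UMIs in 15 of 330 cells, or 21.6 CPM (14.3 to 31.2). Cnn1 was thus the one gene of the 9 counted that was at least 2-fold higher in the airway-type than in the pericyte-led sub-cluster (3.28, 2.51 to 4.35). Next to Actc1 it was also the gene that separated Hhip-high from airway-type cells most (ratio 0.0281, 0.0183 to 0.0416).

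Tagln (chromosome 9, 45929619-45936058, minus strand), which codes for the actin-binding protein transgelin, had the highest level of these genes in Hhip-high cells and in alveolar-like fibroblasts. It stood at 14710.3 CPM in the muscle-led, 9825 CPM in the airway-type, 6787 CPM in the pericyte-led and 3108 CPM in the Hhip-high cells (3012 to 3205). In the Hhip-high cells Tagln UMIs outnumbered those of Acta2, 4034 against 2082, and in the airway-type they did so less, 3236 against 2769. In the muscle-led cells they were fewer, 14659 against 22088. Alveolar-like fibroblasts had 370 CPM (358 to 382) and a Tagln UMI in 35.5% of cells thinned to 2000 UMIs, against 1.88% of alveolar type 2-like cells. The genes Pcsk7 and Gm48529 overlap Tagln on the opposite strand and are features of the matrix.

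Smoothelin, from Smtn (chromosome 11, 3517523-3540612, minus strand), is known from fully contractile muscle. Its gene was at 415 CPM in the muscle-led cells (376 to 457) but only at 75.9 CPM in the airway-type (49.1 to 112), 67.8 CPM in the pericyte-led (41.4 to 105) and 20.03 CPM in the Hhip-high cells (13.1 to 29.3). Adventitial-like fibroblasts had 42.2 CPM (39.4 to 45.1) and alveolar-like fibroblasts 25.9 CPM (22.8 to 29.3), both above the 1.55 CPM of alveolar type 2-like cells. Smtn was therefore not low in fibroblasts relative to Hhip-high cells. Their ratio was 0.542 (0.353 to 0.799). Gm11946 and Gm11947 lie on its opposite strand and are not features of the matrix.

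Des (chromosome 1, 75360329-75368579, plus strand), the gene of the muscle intermediate filament desmin, differed least among the muscle sub-clusters. It was at 1303 CPM in the muscle-led (1233 to 1375), 1099 CPM in the airway-type (989 to 1218), 875 CPM in the pericyte-led (771 to 988) and 244 CPM in the Hhip-high cells (218 to 273). Its share in cells thinned to 2000 UMIs was 78.8%, 61.5%, 68.3% and 33.9% in the same order. Alveolar-like fibroblasts had 38.2 CPM and adventitial-like fibroblasts 6.32 CPM, against 1.74 CPM in alveolar type 2-like cells. Gm15179, a feature of the matrix, overlaps its end on the opposite strand.

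Pln (chromosome 10, 53337667-53345987, plus strand), whose protein phospholamban restrains the calcium pump of the sarcoplasmic reticulum in heart and smooth muscle, was almost unseen. It had 39 UMIs in 22 of the 8933 cells. The muscle-led sub-cluster had 8 UMIs in 6 cells (8.03 CPM, 3.47 to 15.8), the airway-type 2 UMIs in 1 cell, and the pericyte-led and Hhip-high cells 0, which at 3 UMIs allows up to 10.2 and 2.31 CPM. It lies inside Cep85l, which is on the opposite strand and is a feature of the matrix.

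**Figure D3:**
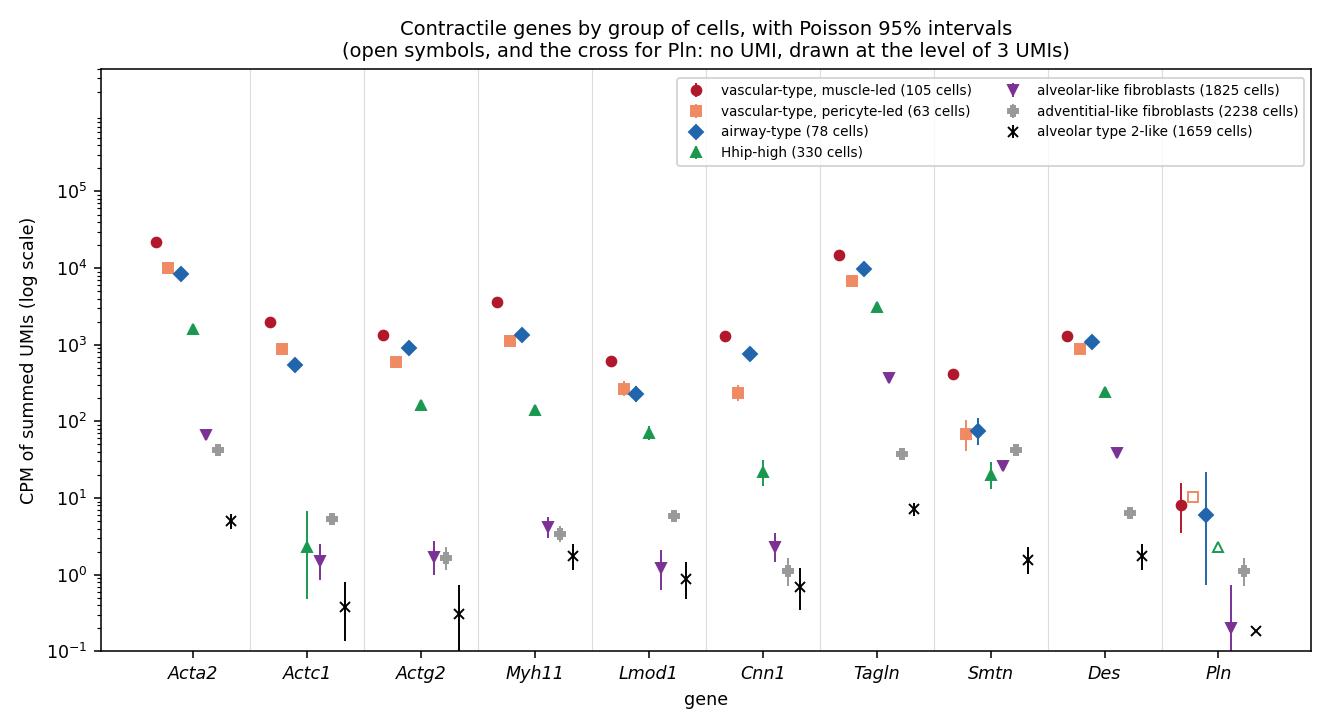
Levels of the 10 contractile genes in 7 groups of cells, as CPM of summed UMIs on a log axis with exact Poisson 95% intervals, most of them smaller than the symbols. For 9 genes the muscle-led symbol is the highest, the Hhip-high symbol lies below the other 3 muscle-pool groups, and only for Actc1 and Smtn does it lie at or under the level of a fibroblast group.

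Against adventitial-like and alveolar-like fibroblasts together (4063 cells), the muscle-led sub-cluster had 10 of 10 genes at least 2-fold higher, where 12.8% of all genes were, and 0 at most 0.5-fold, where 16.9% of all genes were. The median ratio was 292 over the 10 genes and 1.01 over all genes tested. The airway-type sub-cluster had 9 of 9 genes higher (20.8% of all genes) and 0 lower (12.8%), with a median of 131 against 1.14. The pericyte-led sub-cluster had 8 of 9 higher (22.4%) and 0 lower (11.7%), with a median of 156 against 1.18, and Smtn between the limits at 1.84 (1.12 to 2.85). With both vascular-type sub-clusters pooled, 10 of 10 genes were higher (11%) and 0 lower (15.5%). A gene was counted with at least 30 UMIs over both groups. In these small groups many of the genes behind the shares of all genes had few UMIs and wide intervals. The size of the ratios depends on which fibroblasts and cells are counted: over the alternatives the Acta2 ratio of the muscle-led sub-cluster ran from 164 to 461 and that of Actc1 from 135 to 1490.0.

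The Hhip-high cells stood between fibroblasts and muscle, but not for every gene. Over fibroblasts, 7 of 9 genes were at least 2-fold higher, against 9.06% of all genes, and 0 were at most 0.5-fold, against 12.7%. The 7 ran from Cnn1 at 14.4 (8.64 to 23.5) to Actg2 at 97.6 (71.6 to 135), with Acta2 at 32.1 (30.1 to 34.3), and the median of the 9 was 16.1 against 1.05 over all genes. Actc1 and Smtn were the remaining pair. Actc1 was at most 0.5-fold under 4 alternatives and Smtn under 2 of these, and without cluster 16, described below, the Actc1 ratio was 1.73. With cells of at least 200 genes and up to 20% mitochondrial UMIs, Cnn1 was at 1.55.

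Over the airway-type sub-cluster, 9 of 9 genes were at most 0.5-fold in the Hhip-high cells, where 3.6% of all genes were, and 0 were at least 2-fold higher, where 8.6% were. Both groups have Hhip and similar depth, with medians of 3828 and 3789 UMIs per cell. The muscle names required a minimum score on a list that holds other contractile genes. A lower level of contractile genes in Hhip-high cells than in muscle was thus partly fixed by the naming, here and in the comparisons below. The ratios were unequal: Tagln (0.316, 0.302 to 0.331) and Lmod1 (0.308, 0.224 to 0.424) were nearest to 1, then Smtn (0.264), Des (0.222), Acta2 (0.191, 0.180 to 0.202), Actg2 (0.178) and Myh11 (0.107, 0.0892 to 0.127). Cnn1 (0.0281) and Actc1 (0.00428, 0.000874 to 0.0127) were set far below the others. The median of the 9 was 0.191, against 1.05 over all genes. The 9 genes were also at most 0.5-fold against the muscle-led (10.1% of all genes, median 0.0724) and the pericyte-led sub-cluster (7.59%, median 0.262), as well as the pooled vascular-type cells (10.2%). In none of these was a gene at least 2-fold higher (14%, 11.8% and 10.5% of all genes). The 3 Hhip-high sub-clusters were not alike in level. Acta2 was at 1649, 1261 and 1858 CPM and Tagln at 3075, 2210.0 and 3961 CPM in sub-clusters 100, 101 and 103, with Tagln intervals that did not overlap. In sub-cluster 103, 21 of 97 cells (21.6%) gave 1% or more of their UMIs to the 10 genes, and in sub-cluster 101 6 of 110 (5.45%). The 3 Actc1 UMIs were in sub-cluster 101.

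**Figure D4:**
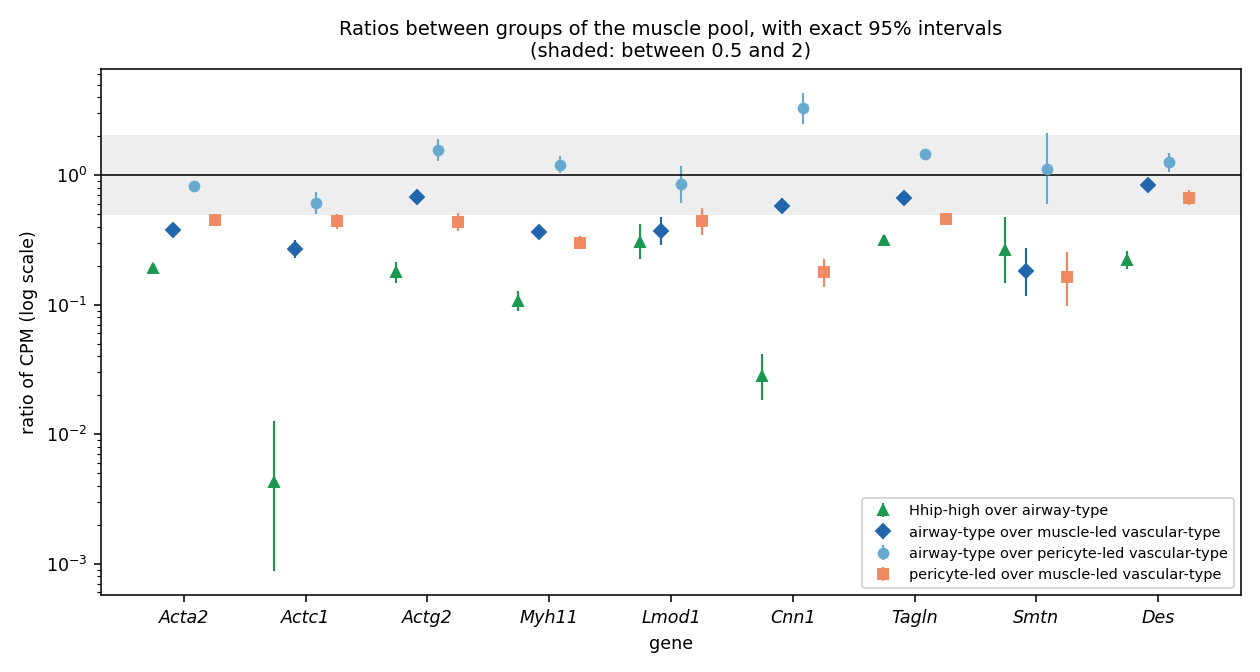
Ratios of CPM for 9 contractile genes between groups of the muscle pool (log axis), with exact 95% intervals; the shaded band lies between 0.5 and 2. Hhip-high over airway-type (green) is under the band for 9 of 9 genes and lowest for Actc1 (0.00428) and Cnn1 (0.0281), and airway-type over pericyte-led (light blue) leaves the band only for Cnn1 (3.28).

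The airway-type sub-cluster lay below the muscle-led one for some genes and not for others. At most 0.5-fold were 5 of 9 genes (12% of all genes): Smtn at 0.183 (0.117 to 0.274), Actc1 at 0.271 (0.231 to 0.316), Myh11 at 0.365 (0.329 to 0.403), Lmod1 at 0.374 (0.290 to 0.476) and Acta2 at 0.379 (0.364 to 0.395). Between the limits were Cnn1 (0.583), Tagln (0.668), Actg2 (0.684) and Des (0.844, 0.749 to 0.949), and 0 were at least 2-fold higher (7.64%). Actc1 passed 0.5 at a Leiden resolution of 2 (0.512) and at a sub-cluster resolution of 0.5 (0.541). The median of the 9 was 0.379, against 0.979 over all genes. Against the pooled vascular-type cells 5 were lower (11.5%) and 0 higher (6.02%), and the count of lower genes was 2 or 3 under 4 alternatives. The muscle-led cells were the deeper ones, with a median of 8627 UMIs against 3789. The part of depth in these ratios was not tested. Pecam1, the gene of the CD31 protein used in the sort, was at 54.2 CPM in the muscle-led and 6.07 CPM in the airway-type sub-cluster, while Cdh5, a defining endothelial gene, had 1 UMI in each, and the 9 genes of an endothelial list, 5 of them with a UMI in each, summed to 117 and 36.4 CPM.

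Compared with the pericyte-led sub-cluster, airway-type cells had 1 of 9 genes higher, Cnn1, where 5.79% of all genes were, and 0 lower, where 8.04% were. The other 8 lay between 0.615 (Actc1, 0.506 to 0.748) and 1.56 (Actg2, 1.29 to 1.89), with a median over the 9 of 1.21 against 1.0 over all genes. Between the 2 vascular-type sub-clusters, 8 of 9 genes were at most 0.5-fold in the pericyte-led against the muscle-led cells (10% of all genes), 0 were higher (7.72%), and Des was between the limits at 0.672 (0.585 to 0.768). Their depths also differed, 4693 against 8627 UMIs. With 3-fold limits, the counts of lower genes were 2 for airway-type over muscle-led and 3 for pericyte-led over muscle-led, and the latter was also 3 when clusters and values came from separate UMIs.

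**Figure D5:**
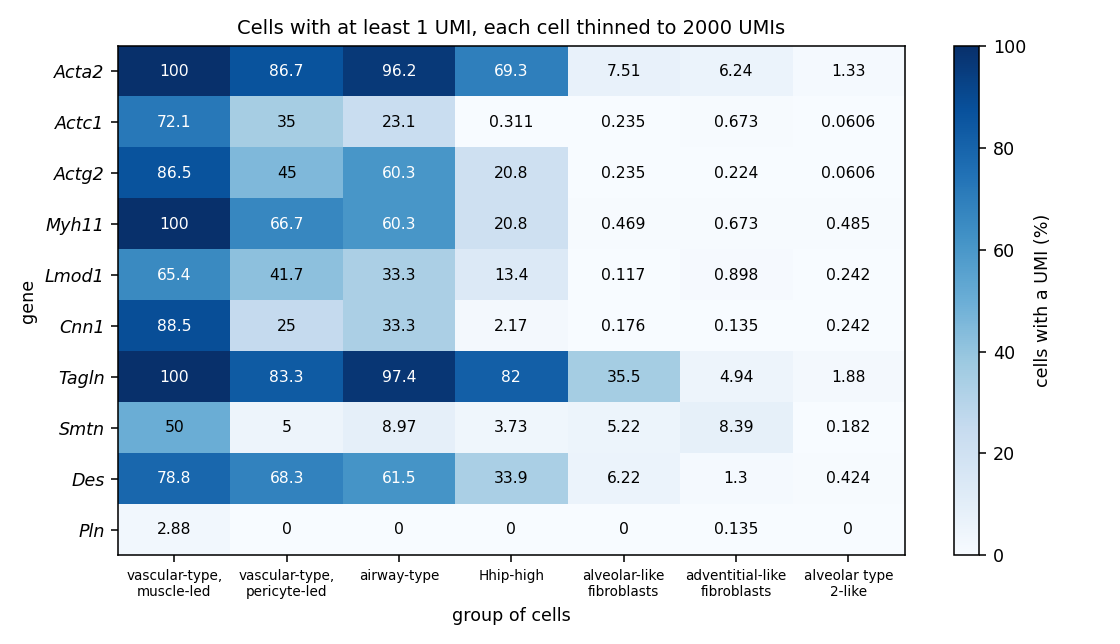
Share of cells with at least 1 UMI of each contractile gene (colour and printed percentage) after every cell was thinned to 2000 UMIs, which left out 1, 3, 0, 8, 120, 10 and 8 shallower cells in the 7 groups from left to right. Acta2 and Tagln are seen in 69.3% to 100% of cells of the 4 muscle-pool groups, Actc1 and Cnn1 in 0.311% and 2.17% of Hhip-high cells, and of the fibroblast groups shown only alveolar-like cells exceed 10%, for Tagln (35.5%).

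Cells within the groups were uneven. Of the 78 airway-type cells, 22 had an Actc1 UMI, and these had more of the other contractile genes than the 56 without: Acta2 at 12884 against 5716 CPM, Myh11 at 2434 against 666 CPM, Cnn1 at 1569 against 287 CPM and Tagln at 13150.4 against 7826 CPM. They were also deeper (median 4633.5 against 3390.5 UMIs) and had more Mcam (129 against 14.6 CPM) and Chrm2 (364 against 77.8 CPM), less Hhip (2612 against 3617 CPM) and no Notch3 UMI in either set. In cells thinned to 2000 UMIs, Cnn1 was seen in 14 of 18 airway-type cells with Actc1 and in 20% of those without. The pericyte-led sub-cluster showed the same unevenness beside its pericyte genes. Its 27 cells with Actc1 had Acta2 at 15245 CPM and Higd1b at 19.7 CPM, and its 36 cells without had 4607 and 657 CPM. The pericyte list summed to 2594 and 6201 CPM, and the smooth muscle list, which holds none of the 10 genes, to 10394 and 3237 CPM. These sets were split by the genes measured, so the values describe the cells and compare no conditions.

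The reporter marked the airway-type cells most. Egfp was at 5174 CPM in them, at 2824 CPM in the pericyte-led, 2028 CPM in the Hhip-high and 755 CPM in the muscle-led sub-cluster, against 82.2 CPM in alveolar type 2-like cells. Among airway-type cells, 65 had at least 1000 CPM of Egfp and 7 had under 200 CPM. The 10 genes summed to 24852 and 12641 CPM in these sets, on few cells in the second. In Hhip-high cells the sums were 7008 CPM (95 cells) and 4654 CPM (169 cells), and Acta2 was at 2086 and 1435 CPM. In the muscle-led cells they were 52031 and 46685 CPM (16 and 76 cells), and in the pericyte-led cells 22274 and 20038.5 CPM (30 and 27 cells). In the pericyte-led cells Actc1, Lmod1, Cnn1, Smtn and Des were lower in the first set and Actg2 was level at 611 CPM. Acta2, Myh11 and Tagln were higher there. With both vascular-type sub-clusters pooled the order of the sums was the other way, 38652 and 42435 CPM. The median depths of the Hhip-high sets were 3723 and 3888 UMIs.

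In fibroblasts the 10 genes were low and unequal. Besides the adventitial-like and alveolar-like cells there were 1587 cells (17.8% of kept cells) in clusters 2 and 7 whose scores for both fibroblast lists were nearly equal, and these mixed cells are in no comparison above. Of the fibroblast groups they had the highest level of Acta2, 131 CPM (125 to 137), with Tagln at 107 CPM, Smtn at 45.7 CPM and Des at 11.7 CPM, and an Acta2 UMI in 14.55% of cells thinned to 2000 UMIs. Cluster 14, a small alveolar-like cluster described below, had more Acta2 on its own, 229 CPM (179 to 289). In cluster 2 Acta2 (1200 UMIs) outnumbered Tagln (629 UMIs), and in cluster 7 it did not (580 against 834). By cell, 0 of 2238 adventitial-like and 3 of 1825 alveolar-like cells (0.164%), and 1 of the mixed cells, gave 1% or more of their UMIs to the 10 genes, which 64.1% of airway-type and 43 of 330 Hhip-high cells did. Alveolar-like over adventitial-like cells, 3 of 9 genes were at least 2-fold higher (11.9% of all genes): Tagln at 9.93 (9.19 to 10.7), Des at 6.04 (4.94 to 7.43) and Cnn1 at 2.10 (1.13 to 3.91). At most 0.5-fold were 2 of 9 (10.5%): Actc1 at 0.284 (0.154 to 0.488) and Lmod1 at 0.208 (0.105 to 0.377). With cells of at least 200 genes and up to 20% mitochondrial UMIs, 7 genes were higher and 0 lower, and Actc1 was at 8.31 and Lmod1 at 1.15. The median of the 9 was 1.23 against 1.11 over all genes. Acta2 differed less in the main run (1.6, 1.45 to 1.78), so there the alveolar-like cells had Tagln and Des without a like difference in Acta2. Over the alternatives its ratio ran from 0.844 to 5.28. By cluster, Acta2 ran from 23.7 CPM (cluster 5) to 229 CPM (cluster 14) in alveolar-like cells. In adventitial-like cells it ran from 16.2 CPM (cluster 4) to 71.1 CPM (cluster 16). The part of free RNA in these low levels was not tested. The alveolar type 2-like level was 7.15 CPM for Tagln and 1.74 CPM for Des, below the adventitial-like and alveolar-like levels for both genes. Other epithelial groups had more. Tagln was at 94.7 CPM in club or secretory, 74.3 CPM in alveolar type 1-like and 31.4 CPM in ciliated cells, against 37.3 CPM in adventitial-like cells. In club or secretory cells Acta2 was at 112 CPM and Des at 9.85 CPM, also above the adventitial-like levels. Those levels thus lay within the range of the epithelial groups.

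Small clusters decided some of these low values. Cluster 14 (154 alveolar-like cells, median 1734 UMIs) held 16 of the 23 alveolar-like Cnn1 UMIs, and without it Cnn1 was at 0.731 CPM and its ratio to adventitial-like cells was 0.660, not 2.10. Cluster 16 (91 adventitial-like cells), led by the heart muscle genes Myl7, Myl4, Sln and Tnni3, held 86 of the 111 adventitial-like Actc1 UMIs and 22 of the 23 Pln UMIs. Without it adventitial-like Actc1 was at 1.25 CPM, the Actc1 ratio was 1.21 and not 0.284, and Pln was at 0.0500 CPM. Heart muscle transcripts in these cells move with Actc1 and Pln, and their part was not tested. Tagln and Des kept their direction in every alternative run (5.46 to 13.6 for Tagln and 3.99 to 19.2 for Des).

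Other genes of the contractile machinery followed only in part. Of 88 genes in 7 lists (motor and light chains, thin filament, control of contraction, calcium handling, anchoring, receptors and transcription), 72 had no part in naming a group. In the muscle-led sub-cluster 40 of the 68 tested were at least 2-fold higher than in fibroblasts (12.8% of all genes) and 9 at most 0.5-fold (16.9%), with a median of 2.81. In the pericyte-led sub-cluster the counts were 31 (22.4%) and 3 (11.7%) of 64, with a median of 1.95. In the airway-type they were 24 (20.8%) and 4 (12.8%) of 64, with a median of 1.58. In the Hhip-high cells they were 16 (9.06%) and 8 (12.7%) of 65, with a median of 1.21. The shares of lower genes in the muscle-led and Hhip-high cells were near those of all genes. The anchoring list led in the muscle-led cells, with 17 of 18 higher, among them the sarcoglycan gene Sgca (41 UMIs against 1 UMI) and the Z-line gene Pdlim3 (345 against 2.48 CPM). The medians of the 10 genes were larger in each group, and of 7 receptor genes tested in the muscle-led cells 2 were higher, Ednrb (73.1) and Tbxa2r (3.88), and 5 lower, among them the adrenergic receptor gene Adra1a (4 UMIs, 0.286, 0.0775 to 0.737). Klf4, a transcription factor gene known to repress contractile genes, was at 442 CPM in the muscle-led and 1575 CPM in the fibroblasts (0.280).

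Between the Hhip-high and airway-type cells, 13 of 54 of these genes were at most 0.5-fold (3.6% of all genes) and 3 at least 2-fold higher (8.6%), the latter near the share of all genes. The lowest were the actin crosslinker gene Actn1 (20.8 against 197 CPM, 0.105), the dystrophin gene Dmd (0.265) and the endothelin receptor gene Ednrb (193 against 625 CPM, 0.309). The highest were Mef2a (2.43, 1.86 to 3.23), a transcription factor gene, Pdlim5 (2.10, 0.958 to 5.46) and Tpm3 (2.02, 1.45 to 2.90). Pdlim5 had 7 UMIs in the airway-type cells, and its interval spans 1. Airway-type over muscle-led cells, 22 of 57 were lower (12%) and 6 higher (7.64%), the latter again near the share of all genes. Here Ednrb (625 against 88.3 CPM, 7.08), the G protein regulator gene Rgs2 (1157 against 109 CPM, 10.6) and the cyclic GMP phosphodiesterase gene Pde5a (619 against 183 CPM, 3.39) were the highest, and the Z-line gene Ldb3 (2 UMIs, 0.123, 0.0145 to 0.471), the junctophilin gene Jph2 (0.165) and the thromboxane receptor gene Tbxa2r (15.2 against 86.3 CPM, 0.176) the lowest. Ppp1r14a, whose protein inhibits myosin phosphatase, was at 1665 CPM in the pericyte-led, 1372 CPM in the muscle-led, 276 CPM in the airway-type and 100 CPM in the Hhip-high cells. Fibroblasts, at 433 CPM, were above the last 2 groups (ratios of 0.638 and 0.231), and within them alveolar-like cells had 1152 CPM and adventitial-like cells 91.2 CPM.

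Among the genes whose level varied most like the mean of the 10 over 27 clusters and sub-clusters (log2 CPM plus 1, 9974 genes with at least 500 UMIs, Pearson's r across clusters of 1 sample, a description) were Hspb7 (0.94), a small heat shock protein gene of muscle, Tpm2 (0.93), Synpo2 (0.92), Sh3bgr (0.91), Lmcd1 (0.90), Myl9 (0.89), Kcnk3 (0.87), Mustn1 (0.86) and Anapc7 (0.84). Tpm2, Synpo2, Myl9, Kcnk3 and Mustn1 had served to name groups. Among the 10 genes themselves, r with that mean ran from 0.97 (Myh11) and 0.96 (Actg2) down to 0.85 (Actc1), 0.64 (Smtn) and 0.43 (Pln).

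The authors' deposited table gives 17 clusters, whose cells cannot be set beside the groups above. In the authors' deposited table, cluster 6 had the largest mean counts for Acta2 (61.7), Myh11 (9.97), Actc1 (5.78) and Actg2 (4.76), with log2 fold changes of 6.93, 6.97, 7.66 and 7.65. In the authors' deposited table the same cluster also had Hhip (log2 fold change 4.31), Mcam (6.27) and Higd1b (6.62), so genes of the Hhip-positive, vascular-type and pericyte-led cells above stood in 1 cluster there.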

How the data were processed

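Single-cell RNA from 4 samples with 1 set of labels was measured with a droplet 3′ kit. The authors deposited 1 pooled matrix of UMI counts, made with Cell Ranger 3.0.0 on mm10 per the submitters' processing notes, and a table of cluster mean counts (a score whose scaling is not stated), log2 fold changes and p-values, used as the authors' deposited values. The counting of multi-mapped reads and strand is not given in the sources used here. Barcodes with under 500 genes (1296) or over 10% mitochondrial UMIs (1545) were left out, and Scrublet, through scanpy 1.11.5, called 458 doublets (4.88%), which were removed. Leiden clustering (leidenalg 0.10.2) used 2000 variable genes, 30 components, 15 neighbours, resolution 1 and seed 0, without contractile and reporter genes. The muscle pool was divided again at resolution 1, chosen after seeing the data. Groups were named from marker lists that hold none of the 10 genes. UMIs were summed per group; intervals are exact Poisson, binomial or Clopper-Pearson 95% intervals. A gene with at least 30 UMIs over both groups was counted as higher at 2-fold and as lower at 0.5-fold. A level of 0 allows up to 3 UMIs. The 10 members are described in full, and of the other lists the genes with the largest ratios in each direction are named. Some genes that this rule names are not reported here. The scripts were tested on simulated data. Members and lists were chosen with earlier results of these data known.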

Additional observations from a re-analysis of the deposited data

How the results depend on the processing

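No paired analysis was possible because the 4 samples lie in 1 matrix with no map from cells to samples, which also leaves no replicate to leave out. Over the alternatives, 364 counts of genes were within 1.5 times the main count and 16 were not, and of the values of single genes 1330 stayed within their interval, 407 moved beyond it and 4 turned direction. The alternatives with 3-fold limits and with a lower UMI minimum change only which genes are counted. Values of single genes could not move in them, and these are among the 1330. With cells of at least 200 genes and up to 20% mitochondrial UMIs, alveolar-like over adventitial-like cells had 7 higher and 0 lower genes, with Actc1 at 8.31 and Lmod1 at 1.15; Hhip-high cells had 1 gene lower than fibroblasts, and airway-type had 2 lower than pooled vascular-type cells. With 3-fold limits, 2 genes were lower in airway-type than in muscle-led, 2 than in pooled vascular-type cells, and 3 in pericyte-led than in muscle-led cells. The last count was also 3 with clusters and values from separate UMIs. Hhip-high cells had 2 genes lower than fibroblasts at Leiden resolution 0.5 and with seed 1, and 1 without doublet removal. Airway-type cells had 3 genes lower than pooled vascular-type at Leiden resolution 2 and at sub-cluster resolution 0.5. As a mean over cells, alveolar-like over adventitial-like counts were 5 and 1. Alternatives added after seeing the data were the sub-cluster resolution, counting in mixed fibroblasts, and leaving out cluster 16 (1 gene lower, Actc1 at 1.21) or cluster 14 (Cnn1 at 0.660). Apart from those 2 clusters, the cause was not tested. The few airway-type (78) and pericyte-led cells (63) and low counts such as the 3 Actc1 UMIs of Hhip-high cells limit precision, and Pln was too rare to compare.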

Other observations

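Sub-cluster 107, 14 cells left unnamed (median 3538 UMIs), had the highest levels of several contractile genes: Des at 11246 CPM, Cnn1 at 6844 CPM, Myh11 at 5729 CPM, Actg2 at 4660.3 CPM and Actc1 at 3604 CPM, with Acta2 at 23842 CPM. A glial marker list summed to 1996 CPM in these cells, and in the muscle-led sub-cluster to 2.01 CPM. The striated muscle troponin genes Tnnt3 (1221 CPM) and Tnnt2 (1608 CPM) and the creatine kinase gene Ckm (399 CPM) were also among the leading genes of sub-cluster 107. Actc1 came to 15.1% and Actg2 to 19.5% of Acta2 UMIs. Sub-cluster 106, 34 unnamed cells with an adventitial list sum of 13149 CPM, had Acta2 at 6345 CPM when summed, but the median cell had 351 CPM, so its UMIs lay in a minority of cells.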
